A study of Mus musculus with 3 samples.

Results

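Imprinted genes were followed through 3 untreated mammary tumours from the FVB-MMTV-Neu strain. They were chosen by symbol, as a list of 44 genes among the 47480 symbols of the tables, and they fall into 16 imprinted domains. The list was drawn up with the estimated counts of these tumours already seen, and Igf2 was selected on its gap between tumour 1 and the others, so every value of a member is given as a description and without a test. FVB-MMTV-Neu mice carry the rat Neu gene, an Erbb2 ortholog, as a transgene that the promoter of the mouse mammary tumour virus drives in mammary epithelium. Each tumour had been placed orthotopically in a syngeneic host, had reached 5 mm across and was then left for 7 days with no treatment, per the labels' protocols, while the design text speaks of tumours of untreated MMTV-Neu mice, so the host is uncertain. All tumours form 1 group (n = 3), are numbered in accession order and share strain, transgene and lack of treatment. Nothing in the labels says that they came from separate donors, so the spread between them may be partly technical.

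A gene is called imprinted when its RNA comes mainly from the copy inherited from 1 parent. Imprinted genes sit in clusters, and in each cluster a methylated control region, often together with a long noncoding RNA, silences genes on the maternal or the paternal chromosome. Many of them act on growth: the paternally expressed Igf2 encodes a fetal growth factor, whereas the maternally expressed Igf2r, Cdkn1c, Phlda2 and Grb10 restrain growth. The libraries measured total RNA of each gene, so that the parental allele behind a value was not measured.

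The total estimated counts of the libraries were 47449113, 11388756 and 17147378 for tumours 1, 2 and 3. By the header lines of the deposited files, tumour 1 has lane number 1 and the other tumours lane number 5, so lane and tumour 1 cannot be told apart. Only the lane number was taken from them, so a shared run was not established. Levels are CPM, counts brought to a common library total after TMM scaling (factors of 1.48, 0.722 and 0.936), and intervals beside them are exact 95% Poisson intervals, which cover counting error only. Scaling by library totals instead shifted the median tumour 1 difference over all genes by 0.85 on the log2 scale. The luminal keratin genes Krt8 (407, 734 and 1038 CPM) and Krt18 (461, 245 and 453 CPM), markers of the labelled mammary tissue, were present in each tumour.

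Sequences just upstream of 9 members are shown first, because these genes carry the contrasts described below: the distal chromosome 7 genes that were low in tumour 1 (Igf2, Kcnq1ot1, Ascl2), the receptor and antisense pair that was not (Igf2r, Airn), the chromosome 12 pair Dlk1 and Meg3, and the host gene H13 and intronic gene Zrsr1, which went opposite ways. The sequences are from RefSeq (GRCm38.p6), run 5′ to 3′ on the strand of the gene, and end 1 base before the transcript start, or 3 bases before it for Kcnq1ot1. Capitals mark CpG dinucleotides, the sites at which imprints are methylated. The windows lie at chr7:142657497-142657746 (minus strand, 1 of several Igf2 starts), chr7:143296550-143296797 (minus), chr7:142969265-142969514 (minus), chr17:12769707-12769956 (minus), chr17:12741061-12741310 (plus), chr12:109452573-109452822 (plus), chr12:109540746-109540995 (plus), chr2:152669211-152669460 (plus) and chr11:22971755-22972004 (plus), in the order printed. By their positions, the Igf2 window lies within the gene, and those of Kcnq1ot1, Airn and Zrsr1 lie within Kcnq1, Igf2r and Commd1.
Igf2: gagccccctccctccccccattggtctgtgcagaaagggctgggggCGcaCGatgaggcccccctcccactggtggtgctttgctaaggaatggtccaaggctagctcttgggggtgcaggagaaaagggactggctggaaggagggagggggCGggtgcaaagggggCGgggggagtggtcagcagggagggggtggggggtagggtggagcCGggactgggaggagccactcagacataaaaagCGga
Kcnq1ot1: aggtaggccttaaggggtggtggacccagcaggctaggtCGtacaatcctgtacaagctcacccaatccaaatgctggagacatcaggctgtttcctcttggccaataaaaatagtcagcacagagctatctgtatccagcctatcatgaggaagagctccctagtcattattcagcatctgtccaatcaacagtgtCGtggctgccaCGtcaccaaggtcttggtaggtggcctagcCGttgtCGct
Ascl2: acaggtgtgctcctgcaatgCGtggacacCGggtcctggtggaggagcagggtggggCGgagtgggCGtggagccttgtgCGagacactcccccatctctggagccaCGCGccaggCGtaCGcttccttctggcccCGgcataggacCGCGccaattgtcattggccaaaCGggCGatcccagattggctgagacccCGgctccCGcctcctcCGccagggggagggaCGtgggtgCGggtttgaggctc
Igf2r: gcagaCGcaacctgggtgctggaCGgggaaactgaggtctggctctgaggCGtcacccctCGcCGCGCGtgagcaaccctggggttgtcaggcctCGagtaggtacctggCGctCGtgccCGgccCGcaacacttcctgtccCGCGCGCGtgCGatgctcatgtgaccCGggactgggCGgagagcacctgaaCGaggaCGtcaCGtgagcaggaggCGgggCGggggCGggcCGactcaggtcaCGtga
Airn: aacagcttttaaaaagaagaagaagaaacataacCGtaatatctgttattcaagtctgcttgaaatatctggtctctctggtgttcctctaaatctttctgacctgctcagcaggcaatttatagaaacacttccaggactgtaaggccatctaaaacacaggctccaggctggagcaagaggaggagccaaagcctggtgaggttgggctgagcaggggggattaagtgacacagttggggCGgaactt
Dlk1: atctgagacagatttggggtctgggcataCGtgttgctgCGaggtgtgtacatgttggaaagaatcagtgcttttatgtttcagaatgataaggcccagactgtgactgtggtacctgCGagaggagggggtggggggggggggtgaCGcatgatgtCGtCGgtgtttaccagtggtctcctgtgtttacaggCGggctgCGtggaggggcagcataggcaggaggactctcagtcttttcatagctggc
Meg3: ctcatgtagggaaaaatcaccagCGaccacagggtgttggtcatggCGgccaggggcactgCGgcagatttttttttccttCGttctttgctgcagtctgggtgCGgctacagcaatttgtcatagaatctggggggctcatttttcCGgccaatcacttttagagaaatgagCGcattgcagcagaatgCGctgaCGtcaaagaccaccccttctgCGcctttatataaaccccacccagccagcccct
H13: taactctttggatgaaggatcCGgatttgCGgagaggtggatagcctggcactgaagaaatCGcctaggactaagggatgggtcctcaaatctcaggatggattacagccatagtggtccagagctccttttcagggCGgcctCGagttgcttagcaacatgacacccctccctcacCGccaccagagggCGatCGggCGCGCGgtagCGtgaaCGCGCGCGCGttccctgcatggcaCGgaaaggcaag
Zrsr1: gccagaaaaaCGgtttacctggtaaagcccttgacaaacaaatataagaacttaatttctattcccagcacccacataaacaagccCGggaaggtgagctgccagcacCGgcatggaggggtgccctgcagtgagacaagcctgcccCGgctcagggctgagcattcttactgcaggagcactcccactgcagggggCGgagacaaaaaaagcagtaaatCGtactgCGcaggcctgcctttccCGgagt

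The printed stretches held 6 CpGs for Igf2, 5 for Kcnq1ot1, 19 for Ascl2, 27 for Igf2r, 2 for Airn, 8 for Dlk1, 10 for Meg3, 18 for H13 and 8 for Zrsr1. Low and high CpG counts occurred both among genes that were low in tumour 1 (Kcnq1ot1 and Ascl2) and among genes that were not (Airn and Igf2r). For Igf2 the count depends on the start. Windows of 300 bases held 7 CpGs at the printed start and 24, 14 and 2 at its other starts. RefSeq windows of 300 bases, from 250 before to 50 after the start, were matched for 36 of the 44 members (54 windows) among 27025 genes. The median member had 16 CpGs per window, against 7 for all genes. The ratio of observed to expected CpGs was 0.64 for the median member and 0.39 for the median gene, and it reached 0.6 in 19 members (52.8%), against 35.5% of all genes. An exact GGGCGG (GC box, either strand) was present in windows of 20 members (55.6%, against 38.2% of all genes), and CAGCTG (an E box read by myogenic factors among others) in 6 members (16.7%, against 18.3%). The letters GGGGCCCC, a motif of the zinc finger factor Plagl1, were found in windows of 3 members, Peg3, Usp29 and Ppp1r9a (8.33%, against 1.25% of all genes), where the windows of Peg3 and Usp29 overlap. None of the 3 motifs contains another. These matches are descriptions of letters and were not compared with binding or methylation.

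Several members also host microRNAs, which these mRNA libraries did not measure. The annotation places 2 mature microRNAs within Igf2, 2 within H19, 26 within Mirg and 11 on the strand opposite Rtl1. Shown here, with the seed (bases 2 to 8) in capitals, are those inside H19 (chr7:142577112-142577133 and chr7:142577078-142577099, minus strand) and Igf2 (chr7:142654968-142654989 and chr7:142654932-142654952, minus strand) and miR-127-3p from the strand opposite Rtl1 (chr12:109592888-109592909, plus strand), as the genes around them carry the contrasts below. They share no seed.
mmu-miR-675-5p: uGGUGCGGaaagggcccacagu
mmu-miR-675-3p: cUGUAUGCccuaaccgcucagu
mmu-miR-483-5p: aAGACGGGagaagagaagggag
mmu-miR-483-3p: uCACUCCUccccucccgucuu
mmu-miR-127-3p: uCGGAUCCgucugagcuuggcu

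Of the 44 members, 38 had a mean of at least 1 CPM and were counted, as were 14087 genes in all. The other 6 are given at the end. In tumour 1, 16 of the 38 members were at least 4-fold below both other tumours, beside 10.5% of all genes, and 4 were at least 4-fold above both, beside 8.87% of all genes. By domain, the members that were low were 8 of 9 in the distal chromosome 7 domain, with Igf2, which was selected on this gap, and 8 of 29 in the other domains. Of these, Igf2, Slc22a18, Ascl2, Rtl1 and Zim1 were under 1 CPM in tumour 1. They passed the filter only through their levels in the other tumours. The median difference, the log2 CPM of tumour 1 minus the mean of the others, was −4.26 in the distal chromosome 7 domain, −0.57 in the other domains and 0.17 over all genes. With library totals the other domains' median was 0.45, and the domain's median stayed negative at −3.41. Library totals also left 12 of the 16 members below (not Grb10, H13, Rtl1 and Zim1) beside 5.62% of all genes, and put 8 members above (Gnas, Igf2r, Peg3 and Ppp1r9a in addition) beside 20.3% of all genes, a share near that of the members. On distal chromosome 7 the count was 7 without the GC and length trend (not Slc22a18) and 7 with edgeR's filterByExpr, which Ascl2 does not pass. The shares of all genes below were then 6.56% and 8.21%. By comparison, over 12710 genes the biological coefficient of variation came to 63.5% for the 3 tumours and to 32.7% between tumours 2 and 3.

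**Figure D1:**
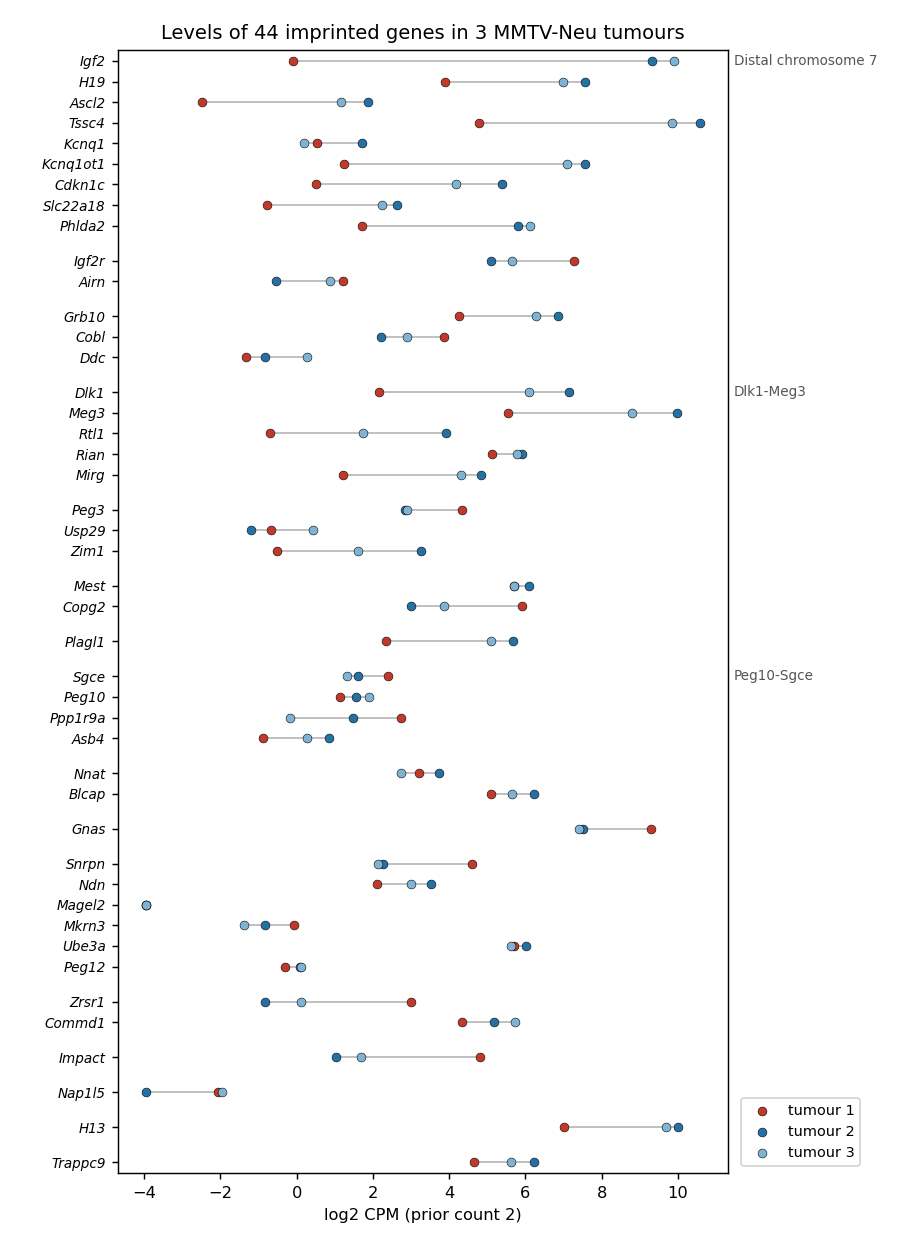
Level of each of the 44 members (log2 CPM, prior count 2, horizontal axis) in tumours 1, 2 and 3, with genes of a domain next to each other and 1 point per library. In the distal chromosome 7 domain the tumour 1 points lie to the left of both others for all members except Kcnq1, whereas those of Igf2r, Copg2, Gnas, Snrpn, Zrsr1 and Impact lie to the right.

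Igf2, the paternally expressed growth factor of the domain (chromosome 7, 142650766 to 142666816, minus strand, GRCm38), showed the widest gap. Its estimated counts were 60, 5134 and 15085 in tumours 1, 2 and 3. This corresponds to 0.867 CPM (0.662 to 1.12), 638 CPM (621 to 656) and 959 CPM (943 to 974), or 533 ± 488 CPM (SD, n = 3). Tumour 1 was 736-fold below tumour 2 and 1105-fold below tumour 3, while tumours 2 and 3 differed 1.503-fold. H19, the maternally expressed noncoding RNA that shares enhancers with Igf2 (142575529 to 142578143), was at 14.7 CPM (13.9 to 15.7) against 188 (179 to 198) and 126 CPM (120 to 131), from 1020, 1514 and 1976 counts. Tumour 1 was thus low for both genes of this reciprocally imprinted pair, but by unequal amounts, with log2 differences of −9.71 for Igf2 and −3.38 for H19. Within tumour 1 there were 17.0 H19 counts per Igf2 count. In tumours 2 and 3 the order was the other way, with 3.39 and 7.63 Igf2 counts per H19 count. Per kilobase of the longest transcript, Igf2 stood at 0.184, 135 and 203 CPM and H19 at 6.45, 82.3 and 54.9 CPM in tumours 1, 2 and 3.

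The rest of the distal chromosome 7 domain is governed by a second control region, from which the paternally expressed antisense RNA Kcnq1ot1 starts. Kcnq1ot1 (143203458 to 143296549) was at 2.30, 190 and 136 CPM in tumours 1, 2 and 3, a log2 difference of −6.09. Genes that Kcnq1ot1 silences on the paternal chromosome were low in the same tumour. Cdkn1c, which encodes the cell cycle inhibitor p57 (143458339 to 143461050), was at 1.34, 41.5 and 18.0 CPM. Phlda2, a restraint on placental growth (143501545 to 143503150), was at 3.20, 56.2 and 69.3 CPM. The transporter gene Slc22a18 was at 0.520, 6.09 and 4.64 CPM. In total RNA, Kcnq1ot1, Cdkn1c, Phlda2 and Slc22a18 were all lowest in tumour 1. The parental copy behind these values was not measured. Tssc4, which encodes a splicing-related protein (143069249 to 143071093), was at 27.6, 1536 and 916 CPM. Tssc4 lies within Trpm5 on the other strand, and Trpm5 (chosen after its values were seen) had at most 9 counts in a library. Ascl2, a transcription factor of trophoblast and intestinal stem cells, had 8, 29 and 34 counts, or 0.116 CPM (0.0499 to 0.228), 3.60 CPM (2.41 to 5.18) and 2.16 CPM (1.496 to 3.02). The potassium channel gene Kcnq1 was the exception, at 1.39, 3.23 and 1.08 CPM, with tumour 1 between the others and a log2 difference of −0.42 that became 0.40 with library totals. Kcnq1ot1 lies within Kcnq1 on the other strand, and no strand setting is given in the sources used here, so reads of these genes cannot be told apart, as holds for each opposite-strand overlap below. Against Kcnq1ot1, Kcnq1 had 0.604 counts per count in tumour 1 and 0.0170 and 0.00795 in tumours 2 and 3.

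Listed neighbours within and around the domain, whose imprinting was not assessed, were set beside it. Of 24 listed neighbours, 21 passed the filter and 12 were at least 4-fold below both others in tumour 1, beside 10.5% of all genes. Their median log2 difference was −2.28 over the 21. Among the neighbours Tnnt3, a fast skeletal muscle troponin gene, had 25 counts against 43899 and 43295. The muscle genes Tnni2 and Nctc1 were also near or at 0 in tumour 1 (21 and 0 counts, chosen after their values were seen). Without these 3 muscle genes, 9 of 18 neighbours were at least 4-fold below, with a median of −2.12 and a range from −5.15 to 0.44. The lysosomal protease gene Ctsd, at the H19 side, was at 586 CPM against 10410 and 6507 CPM, and the cyclin D1 gene Ccnd1, at the far side, was at 674, 1097 and 1227 CPM. The lower values in tumour 1 were therefore not limited to the 9 members of this stretch, which the map of distances shows. With the trend in GC content and transcript length removed over all genes, an adjustment chosen after seeing the data, the medians were −2.81 for the 9 members, −2.14 for the 21 neighbours and −0.62 for members of the other domains.

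**Figure D2:**
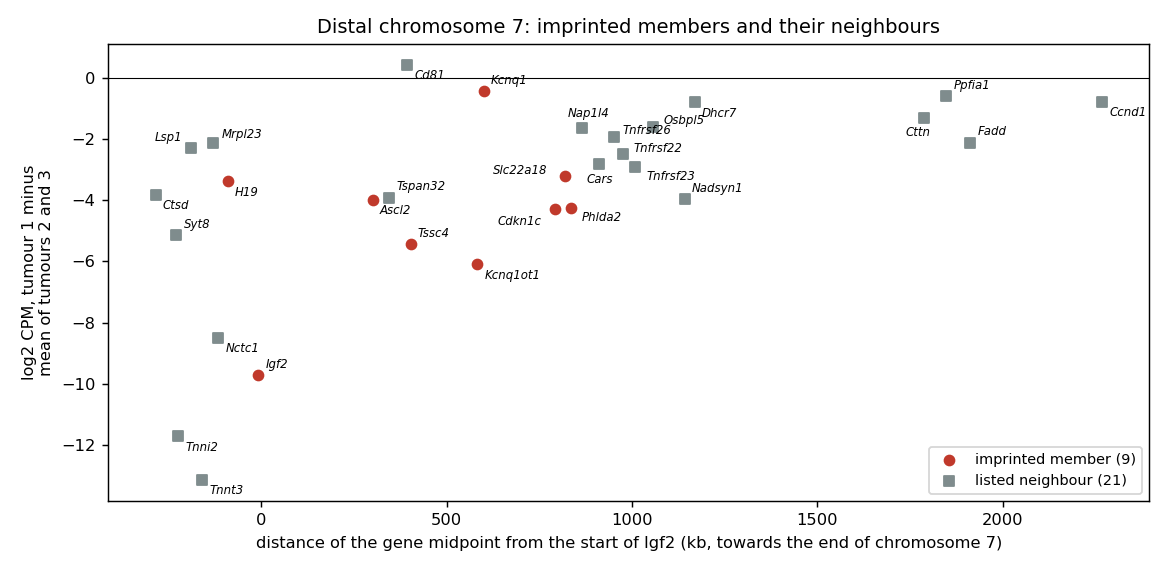
Log2 CPM of tumour 1 minus the mean of tumours 2 and 3 (vertical axis) against the distance of the gene midpoint from the start of Igf2 in kb (horizontal axis), for the 9 distal chromosome 7 members (circles) and 21 neighbours (squares), 1 point per gene. Igf2 and the muscle genes Tnni2, Tnnt3 and Nctc1 lie lowest, and Cd81, chosen after its values were seen, is the only point above 0.

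Markers of skeletal muscle, a tissue in which Igf2, H19 and Dlk1 are known to be active, were also low in tumour 1. All 14 of 14 muscle markers were at least 4-fold below both others in tumour 1, beside 10.5% of all genes, with a median log2 difference of −11.30. Their summed level was 16.4 CPM in tumour 1 against 53812 and 24323 CPM in tumours 2 and 3. The myogenic regulators Myod1 and Myog were at 0 counts in tumour 1, which allows up to 0.0434 CPM (3 counts), and had 44 and 12 counts in tumour 2 and 16 and 35 in tumour 3 (chosen after their values were seen). The 3 most abundant muscle genes on the list, Ckm (0.477, 32750 and 11606 CPM), Tnnt3 (0.361, 5456 and 2752 CPM) and Pvalb (0.0289, 3281 and 1876 CPM), were also higher in tumour 2 than in tumour 3. Between these tumours Igf2 was lower in tumour 2 by 0.59 on the log2 scale, whereas H19, Dlk1 and Meg3 were higher in tumour 2 by 0.58, 1.04 and 1.16. In bulk tissue, fewer cells of a type and less RNA per cell cannot be told apart, and the part of muscle RNA in the members' differences was not tested.

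Some markers of other cell types also differed in tumour 1. Over all genes, 8.87% were at least 4-fold above both others there and 10.5% below. Of 6 basal epithelium markers, 4 were at least 4-fold above and 1 below. Those above included Krt5 at 64.4, 1.62 and 1.46 CPM, Krt14 at 107, 12.4 and 6.74 CPM and Itgb4 at 288, 23.4 and 40.0 CPM. The marker below was Krt15, chosen after its values were seen, with a log2 difference of −4.14. Acta2, at 263, 370 and 245 CPM, did not pass the 4-fold threshold in either direction. The basal list summed to 759, 427 and 318 CPM, and most of the sum in tumours 2 and 3 came from Acta2. None of 10 fibroblast markers passed that threshold, with summed levels of 4271, 6856 and 3810 CPM. Col1a1 was at 1576, 3695 and 1625 CPM, Col1a2 at 1228, 1804 and 1109 CPM and Pdgfra at 18.1, 84.5 and 59.3 CPM. Col3a1 was highest in tumour 1, at 965, 566 and 402 CPM. Of 6 endothelial markers, 2 were at least 4-fold below, Pecam1 at 56.4, 775 and 231 CPM and Emcn at 15.7, 141 and 71.2 CPM. Cdh5 differed less, at 41.2, 72.5 and 46.3 CPM, and the endothelial list summed to 161, 1101 and 405 CPM. In the adipocyte list 1 of 6 was above (Adipoq at 24.3, 3.60 and 3.69 CPM), in the luminal list 1 of 7 below (Elf3 at 24.5, 170 and 185 CPM) and in the macrophage list 1 of 5 below (C1qa at 161, 2426 and 1369 CPM). The T cell, nerve and red blood cell lists had 1 of 1, 2 of 5 and 1 of 3 counted markers below, and 1 nerve marker, S100b, above. Summed levels were 296, 217 and 155 CPM for the adipocyte list, 1662, 1734 and 2485 CPM for the luminal list and 327, 2926 and 1740 CPM for the macrophage list. Most of the macrophage sum in tumours 2 and 3 came from C1qa. Csf1r was at 82.5, 230 and 203 CPM and Mrc1 at 45.4, 241 and 134 CPM. Cd68 (24.5, 18.3 and 22.8 CPM) and Adgre1 (13.8, 11.6 and 11.9 CPM), chosen after their values were seen, were highest in tumour 1. The T cell list summed to 1.76, 9.57 and 6.55 CPM, the nerve list to 14.3, 17.8 and 11.9 CPM and the red blood cell list to 106, 1485 and 835 CPM. The part of these cell types in the members' values was not tested.

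**Figure D3:**
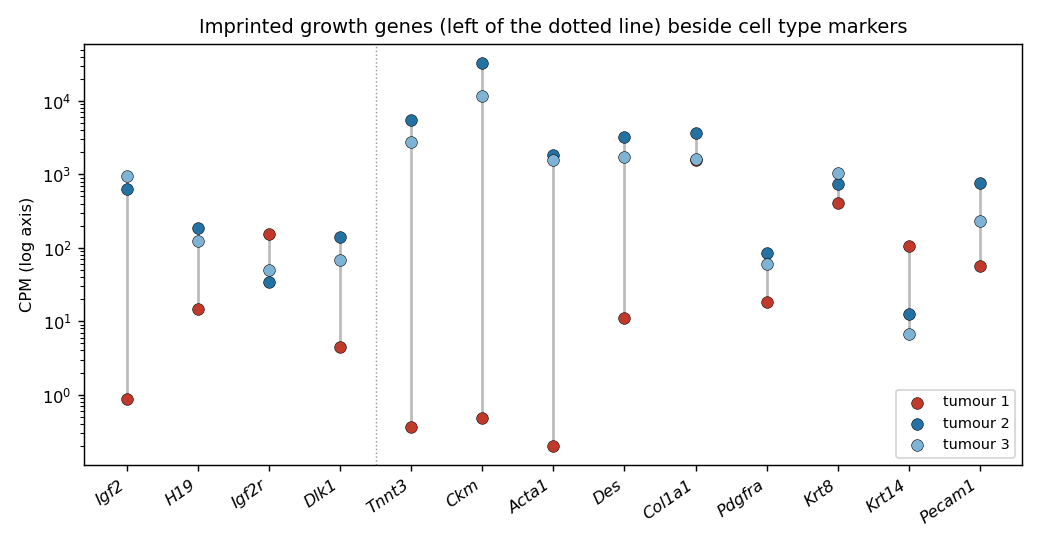
CPM on a log axis in each of the 3 libraries for Igf2, H19, Igf2r and Dlk1 (left of the dotted line) and for 9 cell type markers (right of it), 1 point per library, with Acta1 and Des chosen after their values were seen. The muscle genes Tnnt3, Ckm and Acta1 lie below 1 CPM in tumour 1 together with Igf2, whereas Igf2r and Krt14 are highest there.

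The genes around the growth factor differed as well. Igf2r (chromosome 17, 12682406 to 12769664), the maternally expressed receptor that carries Igf2 to lysosomes, had 10697, 276 and 794 counts, or 155 CPM (152 to 158), 34.3 CPM (30.4 to 38.6) and 50.5 CPM (47.0 to 54.1). Tumour 1 was 4.51-fold above tumour 2 and 3.06-fold above tumour 3, opposite in direction to Igf2. Per kilobase, Igf2r stood at 17.4 CPM in tumour 1, above Igf2 at 0.184, and at 3.86 and 5.68 CPM in tumours 2 and 3, below Igf2 at 135 and 203. The antisense RNA Airn, which silences Igf2r on the paternal chromosome and overlaps its start, was at 2.26, 0.621 and 1.78 CPM. With 156, 5 and 28 counts, it ranked the tumours in the same order as Igf2r, tumour 1 highest and tumour 2 lowest. The Airn intervals were 1.92 to 2.64, 0.202 to 1.45 and 1.18 to 2.57 CPM, so that of tumour 3 overlaps both others. Airn does not pass filterByExpr. Of the IGF axis list, 12 of 14 genes were counted, 2 above and 2 below in tumour 1, with a median difference of 1.003. Over all genes, 8.87% were above and 10.5% below. Igf1, the related growth factor, was at 9.11, 167 and 68.6 CPM, and thus low in tumour 1 like Igf2. The binding protein gene Igfbp5 was at 933, 108 and 53.4 CPM, while Igfbp4 was at 247, 1046 and 478 CPM and Igfbp3 at 79.5, 154 and 91.1 CPM. The other 2 genes past the threshold, chosen after their values were seen, were Igfbp2 (above, at 47.5, 9.32 and 7.05 CPM) and Igfbp6 (below, at 9.99, 113 and 80.7 CPM). The receptor gene Igf1r, also chosen after its values were seen, was at 90.1, 36.5 and 27.6 CPM.

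After distal chromosome 7, the Dlk1-Meg3 domain of chromosome 12 held the most members that were low in tumour 1, 4 of 5, with a median difference of −3.52. Dlk1, a paternally expressed transmembrane regulator of fat and muscle differentiation (109452823 to 109463336), was at 4.44 CPM (3.96 to 4.96) against 141 (133 to 149) and 68.4 CPM (64.4 to 72.6). Meg3, the maternally expressed noncoding RNA of the domain (109541001 to 109571726), was at 46.8 CPM against 1002 and 448 CPM, from 3236, 8059 and 7046 counts. Both parental classes of this domain were low together, and the Dlk1 to Meg3 count ratio stayed at 0.0949, 0.141 and 0.153. Rtl1, a retrotransposon-derived gene expressed from the paternal copy, was at 0.549, 14.9 and 3.24 CPM. It was the only member at least 4-fold above both others in tumour 2, beside 0.61% of all genes, and this ended with library totals, with counts thinned to the smallest library and with the GC and length trend removed. Mirg, a microRNA host transcript, was at 2.27, 28.6 and 19.9 CPM. Rian, the small nucleolar RNA host downstream of Meg3, differed less, at 35.04, 59.7 and 54.6 CPM, with a log2 difference of −0.70 that became 0.15 with library totals. Meg3, Rian and Mirg are often described as parts of 1 long maternal transcript, yet the Meg3 to Rian ratio was 1.33 in tumour 1 and 16.8 and 8.20 in tumours 2 and 3.

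**Figure D4:**
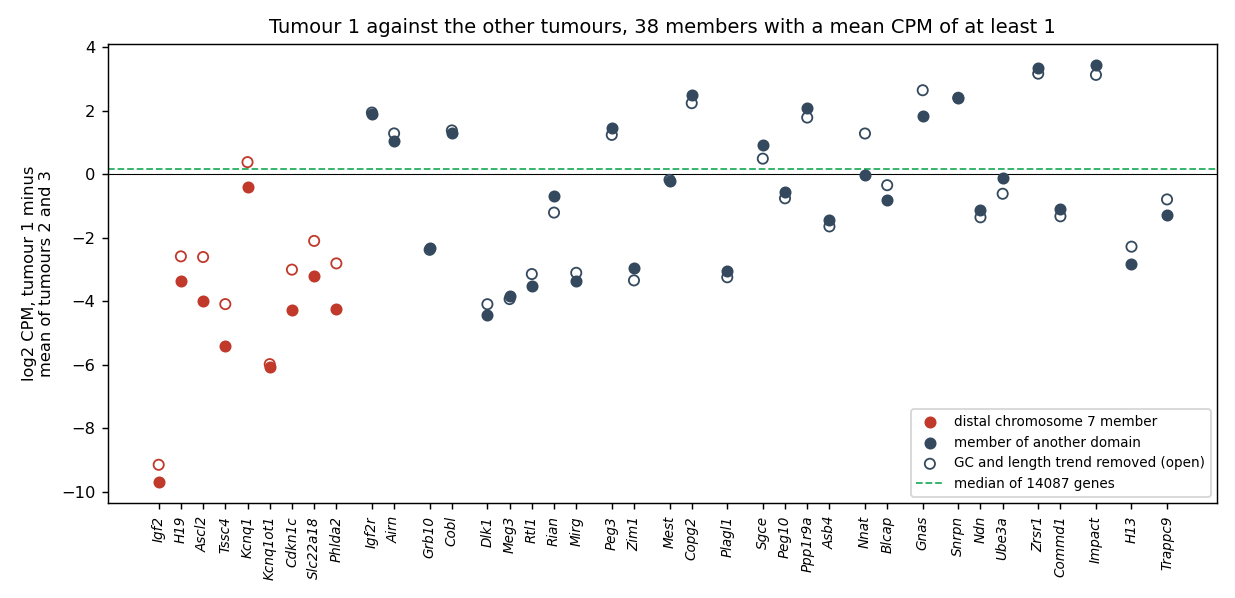
Log2 CPM of tumour 1 minus the mean of tumours 2 and 3 (vertical axis) for the 38 members with a mean of at least 1 CPM, 1 filled point per gene (red for distal chromosome 7, dark blue for other domains), with open points after removal of the GC and length trend and a dashed line at the median of all genes (0.17). The red points other than Kcnq1 lie between −3.20 and −9.71, while the dark points fall on both sides of 0.

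The Grb10, Peg3 and Peg10-Sgce domains held members that were lowest and members that were highest in tumour 1. So did the Mest, Zrsr1 and Snrpn domains, whose members are given in the next paragraphs. Plagl1, the only listed member of its domain, was lowest in tumour 1. Grb10 (chromosome 11, 11930508 to 12038683), an adaptor that dampens insulin and IGF receptor signalling, was at 18.97, 115 and 78.0 CPM. Its neighbour Cobl, an actin nucleator, was at 14.4, 4.599 and 7.37 CPM, highest in tumour 1. Plagl1 (chromosome 10, 13060504 to 13131694), the zinc finger factor whose motif was searched above, was at 4.99 CPM against 51.2 and 34.3 CPM. Peg3 (chromosome 7, 6703892 to 6730431), a zinc finger gene outside the distal domain, was at 20.1, 7.08 and 7.37 CPM. Zim1, its maternally expressed neighbour, was at 0.636, 9.45 and 2.99 CPM and so went the other way, with a Peg3 to Zim1 count ratio of 31.6, 0.750 and 2.47. Of the Peg10-Sgce domain on chromosome 6, no member was 4-fold apart in tumour 1. The sarcoglycan gene Sgce was at 5.15, 2.98 and 2.42 CPM and the actin-binding gene Ppp1r9a at 6.61, 2.73 and 0.826 CPM, both highest in tumour 1. The retrotransposon-derived Peg10 was at 2.14, 2.86 and 3.62 CPM, with a log2 difference of −0.57 that became 0.26 with library totals. The ubiquitin ligase adaptor gene Asb4 was at 0.477, 1.74 and 1.14 CPM.

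Mest and Ube3a differed little between tumours. Mest (chromosome 6, 30723547 to 30748465), a paternally expressed hydrolase-like gene, was at 51.5, 68.5 and 51.8 CPM, or 57.3 ± 9.72 CPM (SD, n = 3). The ubiquitin ligase gene Ube3a was at 52.2, 64.1 and 49.5 CPM, or 55.3 ± 7.78 CPM. The proteolipid gene Nnat was at 9.12, 13.2 and 6.61 CPM and Blcap, in whose intron it lies, at 34.4, 74.3 and 49.7 CPM. The log2 differences of these 4 genes lay between −0.82 and −0.03, and all 4 turned positive with library totals. Trappc9, a vesicle transport gene, was at 24.8, 75.1 and 48.7 CPM, the melanoma antigen family gene Ndn at 4.26, 11.4 and 7.88 CPM and the copper metabolism gene Commd1 at 20.3, 35.8 and 53.2 CPM, each lowest in tumour 1, by up to 3.02-fold for Trappc9, 2.68-fold for Ndn and 2.62-fold for Commd1.

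Members that were high in tumour 1 came from several chromosomes. Gnas (chromosome 2, 174284320 to 174346744), which encodes the stimulatory G protein subunit, had the highest CPM of the members in that tumour, at 627 CPM (622 to 633) against 184 (174 to 193) and 169 CPM (163 to 176). Its complex locus has both maternal and paternal transcripts, which a value per gene does not separate. Copg2, a coatomer gene whose end overlaps that of Mest, was at 59.95, 7.95 and 14.4 CPM. Snrpn, a paternally expressed splicing protein gene, was at 24.1, 4.72 and 4.32 CPM. It shares its transcript with Snurf on the same strand, so its value is uncertain. Impact (chromosome 18, 12955852 to 12992950), a regulator of translation, was at 28.0, 1.99 and 3.18 CPM, and Zrsr1 (chromosome 11, 22972005 to 22976496), a retrogene related to splicing factor U2AF, at 7.85, 0.497 and 1.02 CPM. Copg2, Snrpn, Impact and Zrsr1 were the 4 members of 38 (10.5%) that exceeded both others by at least 4-fold. This share is near the 8.87% of all genes. With the GC and length trend removed the count was also 4, when Copg2 left and Gnas joined, beside 11.2% of all genes. Zrsr1 had 4 and 16 counts in tumours 2 and 3 and was counted only through its level in tumour 1. It does not pass filterByExpr, which leaves 3 members above, beside 6.05% of all genes.

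Imprinted genes that lie inside a host gene were set beside the host. H13 (chromosome 2, 152669461 to 152708670), a signal peptide peptidase gene, was at 130, 1026 and 829 CPM, from 8963, 8254 and 13043 counts. Mcts2, the retrogene in its intron (chosen after its values were seen), was at 13.8, 0.994 and 3.94 CPM. There were 9.38 H13 counts per Mcts2 count in tumour 1 and 1032 and 210 in tumours 2 and 3. Commd1 had 2.58 counts per count of Zrsr1, which lies in its intron, in tumour 1 and 72.0 and 52.3 in the others. For Trappc9 and the noncoding Peg13 in its intron (chosen after its values were seen) the ratios were 3.32, 9.01 and 8.42. For Blcap and Nnat they were 3.77, 5.64 and 7.52. In these 4 pairs the host was lowest relative to its insert in tumour 1, whereas for Kcnq1 and Kcnq1ot1, given above, the host was highest relative to its insert there. Mcts2 and Peg13 lie on the strand of their host and Zrsr1 and Nnat on the other strand, and reads from the shared stretches cannot be told apart.

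**Figure D5:**
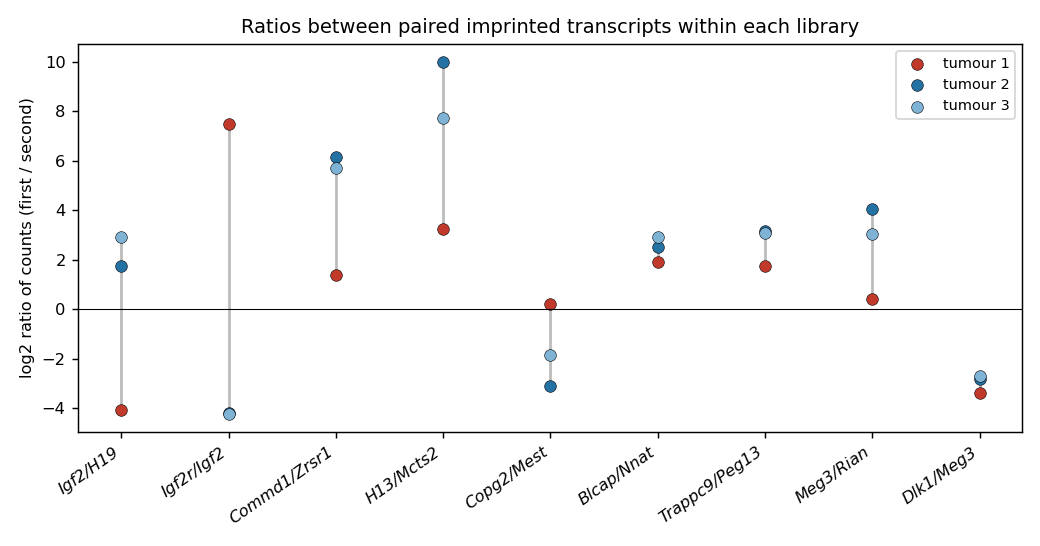
Log2 ratio of estimated counts (first gene over second, vertical axis) within each library for 9 pairs of imprinted transcripts (horizontal axis), 1 point per tumour. Scaling between libraries does not enter these ratios, which set tumour 1 apart from tumours 2 and 3 for Igf2 over H19, Igf2r over Igf2 and Commd1 over Zrsr1, and hardly for Dlk1 over Meg3.

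By the parent that usually expresses the gene, 10 of 14 maternally expressed members that were counted were at least 4-fold below in tumour 1 and 0 above, 5 of 15 paternally expressed ones were below and 3 above, and 1 of 9 with imprinting limited to some tissues was below and 1 above. The shares over all genes were 10.5% below and 8.87% above, so the tissue-limited members were near them. The maternal count includes 6 genes of distal chromosome 7, so class and domain overlap. Tumour 1 was the lowest library for 24 of 38 members, beside 40.8% of all genes, and the highest for 11, beside 48.3%. The difference also varied with base composition. Over 13636 genes, which are not independent, Spearman's rho between GC content and the tumour 1 difference was −0.29, and over the 38 members it was −0.42. Among genes with 56 to 60% GC the median difference was −0.63 over 1967 genes and −3.59 over 8 members, 5 of which are the distal chromosome 7 genes that were low. Kcnq1ot1 had a GC content of 40.3%, in the range of 40 to 44% where the median over all genes was 0.85.

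Tumours 2 and 3, which share a lane number, differed less. Against both others, 0 members were 4-fold below in tumour 2 (beside 2.71% of all genes), 0 were above in tumour 3 (beside 0.177%) and 0 were below in tumour 3 (beside 0.653%). Compared with each other, only Rtl1 was at least 4-fold above in tumour 2 (beside 1.47% of all genes) and no member was 4-fold below (beside 3% of all genes). At least 2-fold, 7 members were above in tumour 2 (beside 9.32%), Cdkn1c, Kcnq1, Meg3, Dlk1, Rtl1, Zim1 and Ppp1r9a, and 1, Airn, below (beside 11.8%). The median difference over the 38 members was 0.44 on the log2 scale, 0.03 with library totals. For 22 of 38 members the range over the tumours was at least 4-fold, beside 36.2% of all genes.

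Of the factors that set or keep imprints, 19 of 21 were counted, with 1 above and 1 below in tumour 1 and a median difference of 1.09. These counts did not exceed the shares over all genes, 8.87% above and 10.5% below. Zfp445, a zinc finger protein that binds imprinted control regions, had 740, 7 and 4 counts, or 10.7, 0.870 and 0.254 CPM. Zfp445 passed the filter only through its level in tumour 1. Its cofactor Trim28 was at 255, 423 and 357 CPM, the maintenance methyltransferase Dnmt1 at 162, 31.1 and 59.0 CPM and the histone methyltransferase Ehmt2 at 129, 512 and 313 CPM. The gene below was Dnmt3l, with 10, 19 and 21 counts (chosen after its values were seen), which passed the filter only through tumours 2 and 3. Of 28 further imprinted genes outside the list, 18 were counted, 2 above and 0 below in tumour 1, with a median difference of 0.08. The share above was near the 8.87% of all genes, and 10.5% of all genes were below. Sfmbt2, a polycomb-related gene, was above at 8.27, 0.373 and 0.445 CPM, and so was Casd1 at 45.8, 6.96 and 6.36 CPM (chosen after its values were seen). Sfmbt2 had 3 and 7 counts in tumours 2 and 3 and passed the filter only through tumour 1. Decorin (Dcn) was at 75.1, 172 and 174 CPM, the receptor kinase gene Axl at 81.7, 192 and 149 CPM and the X inactivation RNA Xist at 272, 109 and 76.6 CPM.

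The 6 members below the filter were scarce in every library. Magel2 had 0 counts in all 3, which allows up to 0.0434, 0.373 and 0.191 CPM (3 counts). Nap1l5 had 12, 0 and 3 counts, Mkrn3 61, 4 and 5, Usp29 39, 3 and 20, Peg12 51, 8 and 16, and Ddc 23, 4 and 18. Most of their Poisson intervals overlap between tumours, but those of tumours 1 and 3 do not for Usp29 (0.401 to 0.771 and 0.776 to 1.96 CPM) and Ddc (0.211 to 0.499 and 0.678 to 1.81 CPM). The direction for Usp29 and Peg12 turned with library totals.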

How the data were processed

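RNA of 3 tumours was sequenced with the TruSeq mRNA kit as paired reads of 50 bp. The authors deposited, for each gene symbol, the estimated count of Salmon (read numbers, per the file headers). Build mm10 and the tools STAR, SAMtools, Picard and Salmon are named per the submitters' processing notes. No version, annotation release or strand setting is given in the sources used here. Salmon shares ambiguous reads between overlapping transcripts, which can move values of overlapping members.

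The members and lists were chosen with earlier results of these data known. Estimated counts were rounded to whole numbers, scaled with TMM factors (edgeR 4.0.16, R 4.3.3, from genes passing filterByExpr) and expressed as CPM or as log2 CPM with a prior count of 2. Genes with a mean of at least 1 CPM were counted, since a filter on every library removes genes near 0 in 1 tumour. A member was called apart in a tumour at 4-fold (2 on the log2 scale) above or below both others. One group of 3 gives no contrast of conditions and no test was run. The calling script was tested on simulated data. Positions, lengths and GC contents came from GENCODE M21 (GRCm38), and 45114 symbols were matched.

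All members are named, and names from each other list come from its 3 genes with the highest mean CPM and the one with the largest range. Other names are marked as chosen after their values were seen. Alternatives were DESeq2 1.42.0 size factors, library totals, prior counts of 0.5 and 10, no filter or filterByExpr, counts thinned to the smallest library, 2-fold and 8-fold thresholds, leaving out each tumour and, added after seeing the data, removal of the GC and length trend.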

Additional observations from a re-analysis of the deposited data

How the results depend on the processing

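Igf2, H19 and the distal chromosome 7 median kept their direction in tumour 1 under every alternative run, with ranges from −10.01 to −8.87 for Igf2, from −3.67 to −2.52 for H19 and from −4.35 to −2.81 for the median. Of the 16 members called below in tumour 1, 16 were kept with DESeq2 size factors, 12 with library totals (without Grb10, H13, Rtl1 and Zim1), 11 at 8-fold, and 15 each with a prior count of 10, with thinned counts, with filterByExpr (without Ascl2) and with the GC and length trend removed (without Slc22a18). Of all genes, 10.5% were below in the main setting, 5.62% with library totals and 4.87% at 8-fold. The share was 8.21% with filterByExpr and 6.56% with the trend removed. The 4 members above in tumour 1 became 1 at 8-fold (beside 3.21% of all genes) and 8 at 2-fold (beside 25%). They became 8 with library totals (beside 20.3%) and 3 with filterByExpr (beside 6.05%). The median of the other domains (−0.57 in tumour 1) was 0.45 with library totals and −0.28 without a filter, and in tumour 2 (0.41) it was −0.34 and 0.19. The single member above in tumour 2, and the single one 4-fold apart between tumours 2 and 3, became 0 with library totals, with thinned counts and with the trend removed. The count in tumour 2 was 6 at 2-fold and 0 at 8-fold. The counts below in tumours 2 and 3 rose from 0 to 1 at 2-fold. Shares over all genes were not computed for these alternative counts of tumours 2 and 3.

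Leaving out a tumour compares the remaining pair. It gave 1 to 16 members above in tumour 2, 0 to 5 below in tumour 2, 0 to 16 above in tumour 3, 1 to 5 below in tumour 3, and a median of the other domains in tumour 3 (0.12) of −0.37 to 0.53. The distal chromosome 7 median in tumour 3 (1.45) was −0.58 without tumour 1 and 3.68 without tumour 2, and the median between tumours 2 and 3 (0.44) was 0.03 with library totals. The high counts are those left when only tumour 1 remains for comparison. For those pairs the share over all genes was not computed. The cause of these shifts was not tested. No paired analysis was possible because the labels give 1 group and no shared replicate numbers. Depth limits members with few counts, since 3 counts amount to 0.0434, 0.373 and 0.191 CPM in tumours 1, 2 and 3.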
